A study of Mus musculus with 9 samples.

Results

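Livers labelled AT3 were compared with livers labelled CPT, 3 libraries against 3, over every gene of the deposited count table. The comparison was defined by the library titles alone, and 6 of the 9 libraries in the series were compared. The 3 CON libraries also entered the filter on low counts, the scaling and the shared estimate of spread. Of 57010 genes listed, 13686 had enough reads to be tested. All mice were male BALB/c, and the series design states that they were given DDP, which is cisplatin, a platinum drug that crosslinks DNA. CPT and AT3 libraries carry the same treatment entry, acute liver injury caused by cisplatin, and the 3 CON libraries have the entry none. The series title names atractylenolide III, a sesquiterpene lactone of Atractylodes plants, as the compound under study; the sample labels do not spell out AT3 and give no compound entry, dose, route, order or time of dosing, age, or hour at which the livers were taken. The comparison therefore reads what differed between the AT3 and CPT livers on top of the same labelled injury. No label says that each library came from a separate animal, so the p-values measure only the spread between these libraries, which may be technical.

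Liver is made up mostly of hepatocytes, which secrete plasma proteins, make glucose from amino acids, clear drugs with cytochrome P450 and conjugating enzymes, and switch on acute phase genes when inflammatory cytokines reach them. IL-17, the cytokine of the pathway in the series title, signals through its receptor, the adaptor ACT1 (encoded by Traf3ip2) and TRAF6 to NF-kB, and raises chemokines that draw neutrophils. Hepatocytes also run a circadian clock, in which CLOCK and the product of Arntl (also called Bmal1) activate genes of their own repressors, the PER and CRY proteins and the NR1D receptors, so that clock transcripts differ with the hour of sampling.

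The injury was present in all 6 livers. Lcn2, an iron-binding acute phase protein made by injured hepatocytes, stood at 3.45 to 6.24 CPM (counts scaled to a common library total and for library composition) in CON, at 3592, 3914 and 3749 CPM in CPT and at 3000, 3530 and 3692 CPM in AT3. CPT and AT3 overlapped in Lcn2, with an adjusted p of 0.644, and the metallothionein Mt2 also overlapped, at 2671 to 3057 CPM in CPT and 2435 to 2720 CPM in AT3. Summed hepatocyte markers were between 75710 and 100200 CPM in CPT and between 112500 and 120500 CPM in AT3. Alb, the albumin gene, is part of that sum, with means of 37177 CPM in CPT and 53913 CPM in AT3. Of the 14 tested markers, 9 had a positive difference and 5 a negative one, and 4 were called higher and 1 lower. Totals were 23762623 to 28480479 counts over the 6 libraries, and 3 counts, the limit that a count of 0 allows, corresponded to 0.0934 to 0.115 CPM. In bulk tissue, fewer cells of a type and less RNA per cell cannot be told apart.

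CPT_3 stood apart from CPT_1 and CPT_2, in the direction of AT3. The root mean square difference in log2 CPM over tested genes was 0.493 to 0.505 between CPT_3 and the AT3 libraries, against 0.538 and 0.504 between CPT_3 and the other CPT libraries. AT3 libraries differed from each other by 0.414 to 0.421, and CPT_1 from CPT_2 by 0.456. To place each library, its log2 CPM was set on a scale running from the mean of the rest of its own group at 0 to the mean of the other group at 1, over the genes called when that library was left out. CPT_3 had a median position of 0.553 over 1308 genes, and 55.7% of these genes lay past the midpoint. CPT_1 and CPT_2 had medians of 0.132 and 0.0644 over 353 and 228 genes. The AT3 libraries had medians of 0.0498 to 0.122 over 171 to 227 genes. These gene sets differ, and CPT_3 is in the own group of CPT_1 and CPT_2, so the positions are not like for like. Results are given with and without CPT_3, which was singled out with earlier results of these data known. The distances and positions above describe that choice and are no independent support for it. The labels hold no entry that separates CPT_3 from CPT_1 and CPT_2.

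**Figure D1:**
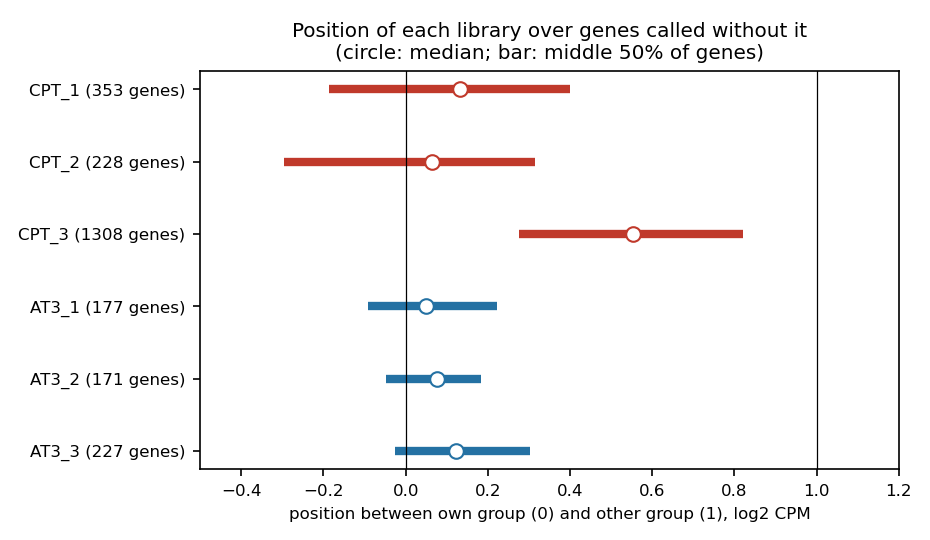
Position of each of the 6 libraries between its own group (0) and the other group (1) on the log2 CPM scale, over the genes called when that library was left out; circles are medians and bars span the middle 50% of genes. The CPT_3 median lies at 0.553, and those of the other 5 libraries lie between 0.0498 and 0.132. Each library has its own set of genes, so the positions are not like for like.

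With all libraries, 641 of 13686 genes were called at an adjusted p under 0.05 by edgeR's quasi-likelihood test with Benjamini-Hochberg adjustment, which is 4.68% of the genes tested. AT3 was higher for 337 genes (2.46%) and lower for 304 (2.22%). In 634 of the 641 genes the 3 AT3 libraries did not overlap the 3 CPT libraries; such separation was seen in 27% of all genes tested. The median size of a called difference was 0.585 on the log2 scale, and 103 called genes differed by at least 1 on that scale, 50 of them higher and 53 lower in AT3. Without CPT_3, 1316 of 14144 genes were called (9.3%), 766 higher (5.42%) and 550 lower (3.89%). The 2 sets shared 605 genes, and 36 of the 641 lost their call.

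**Figure D2:**
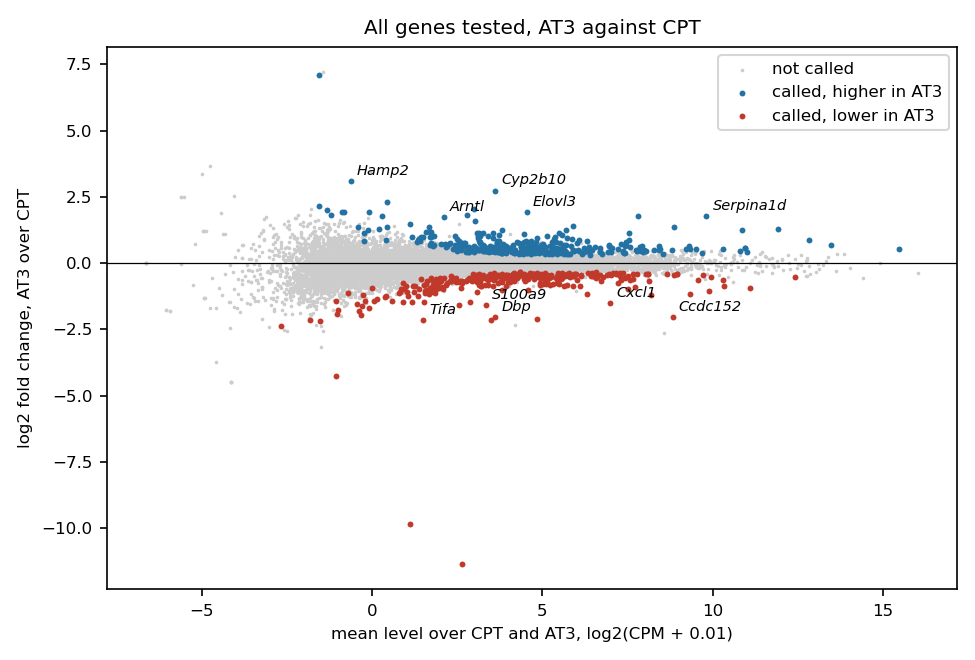
Log2 fold change of AT3 over CPT for each gene tested, against its mean level in the 6 libraries as log2(CPM + 0.01); blue points are the 337 genes called higher in AT3, red points the 304 called lower and grey points genes not called. Names mark genes described in the text, and the red points lowest on the plot, Ugt1a2 and Kpna2, were at 0 in every AT3 library and in CPT_3, so their values are no measure of size.

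Gene lists were read against these shares. List counts without CPT_3 are to be read against the larger shares of that fit, 5.42% higher and 3.89% lower. Members called higher were most frequent in the lists of clock output genes (9 of 23), gluconeogenesis and glycogen genes (10 of 30) and glucocorticoid receptor targets (9 of 28). Members called lower were most frequent, leaving out lists with under 5 tested members, among IL-17 and cytokine target genes (5 of 12), apolipoprotein genes (7 of 24), ER chaperones and unfolded protein response genes (8 of 30) and mitochondrially encoded transcripts (4 of 15). By edgeR's test, 0 of 57 cytosolic ribosomal protein genes, 0 of 34 proteasome genes, 0 of 34 ribosome assembly genes, 0 of 32 DNA repair genes and 0 of 19 cell cycle genes were called. At an unadjusted p under 0.05 they held 10, 9, 5, 3 and 5 genes, and DESeq2 called 3, 1, 0, 0 and 0. Over all genes, 2833 had an unadjusted p under 0.05.

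**Figure D3:**
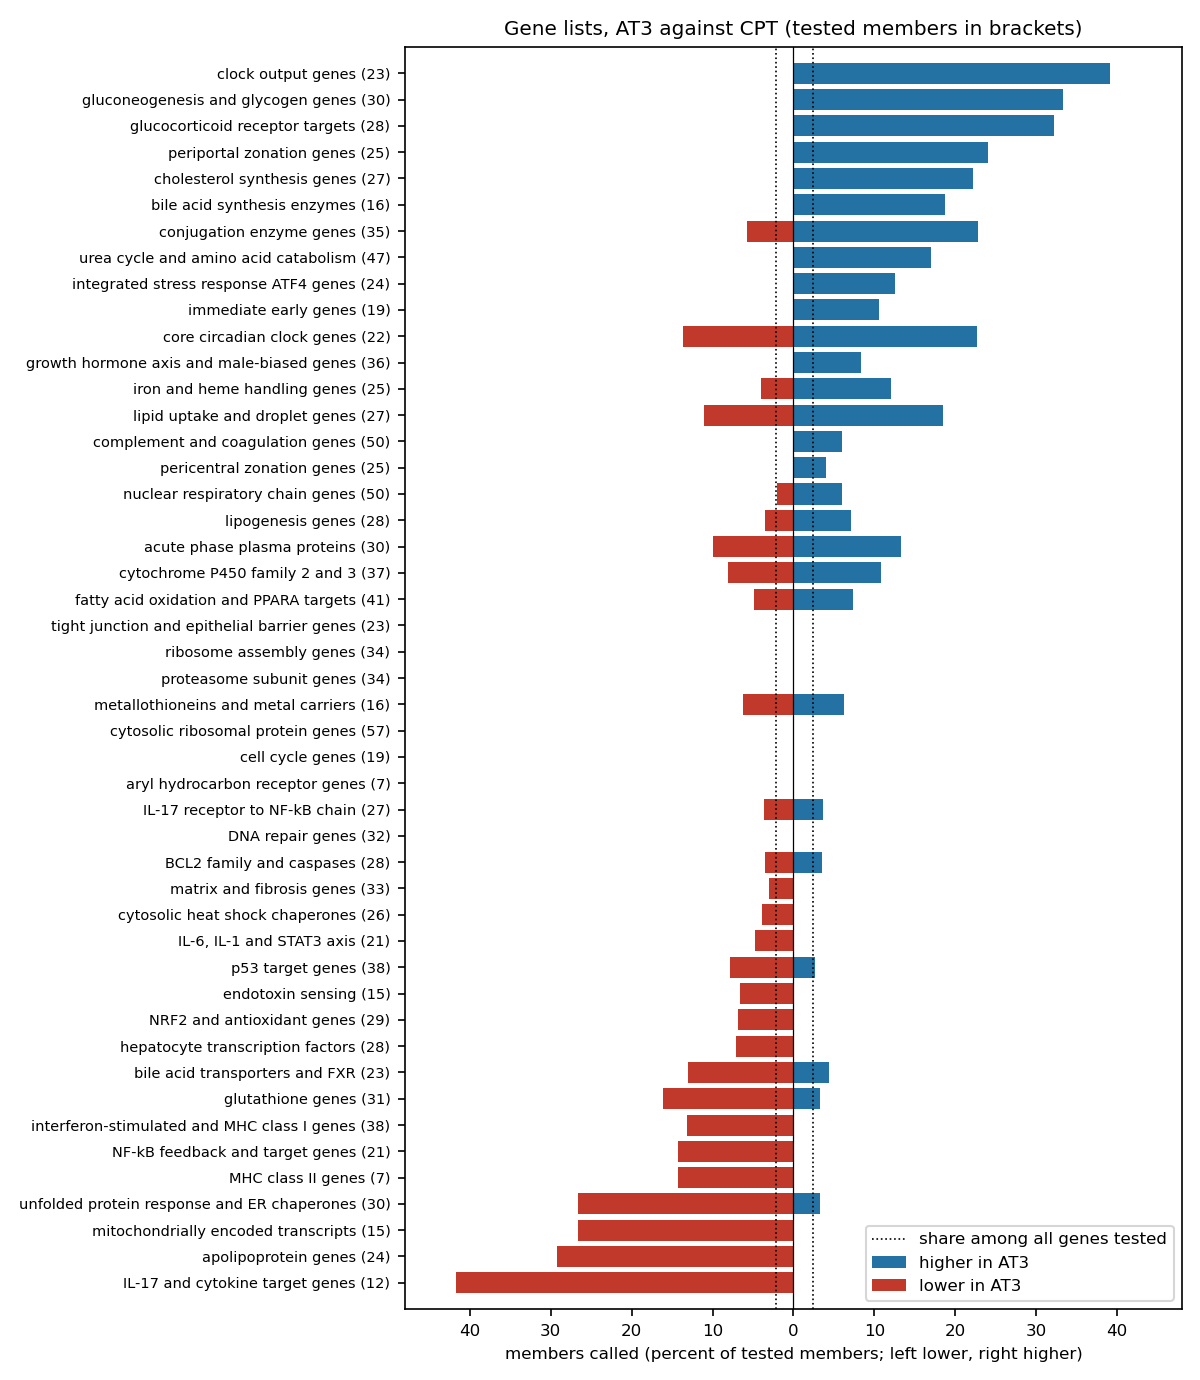
Share of the tested members of each list called higher (blue, right) or lower (red, left) in AT3, in percent, with the number of tested members in brackets; dotted lines mark the shares over all genes tested, 2.46% higher and 2.22% lower. Lists are ordered by the share higher minus the share lower, from clock output genes at the top to IL-17 and cytokine targets at the bottom.

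The clock differed between the groups. Arntl, which encodes the activator BMAL1, was measured at 1.91, 1.43 and 2.61 CPM in CPT and at 6.10, 6.39 and 7.20 CPM in AT3. The groups did not overlap, and CON stood at 4.89, 7.22 and 4.95 CPM, overlapping AT3. Arntl rose 3.33-fold (log2 1.74 ± 0.21 SE, adjusted p = 0.000597), and by 1.98 on the log2 scale without CPT_3. Cry1, which encodes a repressor of the clock, was at 7.0, 7.22 and 6.96 CPM in CPT and at 13.2, 14.6 and 14.9 CPM in AT3. CPT_3 was as low as the other CPT libraries, and Cry1 rose 2.01-fold (adjusted p = 0.000742), with log2 values of 1.01 with and 1.0 without CPT_3. CON was lower than both, at 3.88 to 5.65 CPM. Nfil3, a repressor of D-box genes, rose 1.65-fold (adjusted p = 0.0108). Clock itself rose 1.32-fold with all libraries (log2 0.395, adjusted p = 0.0399). Without CPT_3 its rise was of similar size but missed the threshold (log2 0.37, adjusted p = 0.0556). Of the 6 fits that each left out 1 library, Clock was called in 1.

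The core clock genes that fell were Dbp, Nr1d1 and Nr1d2. Dbp, a D-box activator driven directly by the CLOCK and BMAL1 pair, was at 23.5, 18.9 and 16.6 CPM in CPT and at 4.46, 4.54 and 5.34 CPM in AT3. Dbp fell 4.12-fold (log2 -2.04 ± 0.31 SE, adjusted p = 0.00199), and the CON libraries were spread from 8.84 to 26.5 CPM. Nr1d1, the nuclear receptor that represses Arntl, was at 5.19, 3.77 and 5.77 CPM in CPT and at 1.90, 2.23 and 2.54 CPM in AT3. It fell 2.20-fold (adjusted p = 0.0101), while CON held 14.1 to 23.9 CPM, above both groups. Its relative Nr1d2 fell 1.46-fold (adjusted p = 0.0267). In all, 5 of 22 core clock genes were called higher and 3 lower, and 14 were not called, Per2 among them (adjusted p = 0.167, named after its values were seen); without CPT_3 the counts were 5 and 5. The hour of sampling is not given for either group, and its part in these differences was not tested.

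Cry1 had an E-box, the letters CACGTG bound by CLOCK and BMAL1, in the 250 bases before its start, and its promoter is printed for that reason, from RefSeq on GRCm38.p6 at chr10:85185055-85185304, minus strand, read 5′ to 3′ with the E-box in capitals.
Cry1: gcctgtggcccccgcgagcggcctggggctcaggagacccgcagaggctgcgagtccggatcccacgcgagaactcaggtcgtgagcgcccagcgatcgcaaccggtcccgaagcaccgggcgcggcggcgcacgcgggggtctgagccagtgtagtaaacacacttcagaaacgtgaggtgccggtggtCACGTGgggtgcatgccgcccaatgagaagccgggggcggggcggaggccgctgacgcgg
The match begins 60 bases before the start. CACGTG, which reads the same on both strands, was in 6.05% of the 27025 RefSeq promoters searched, in 5 of the 17 core clock promoters found by symbol and in 1 of the 7 among the called core clock genes. Among called genes it was in 10.8% of the promoters of those higher in AT3 and 8.97% of those lower, beside 8.43% of all tested genes with a promoter in the table.

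Among clock output genes, 9 of 23 tested members rose and none fell at this threshold, with a list median of 0.22 on the log2 scale beside 0 over all genes. Elovl3, a fatty acid elongase with a strong daily rhythm, was at 11.1, 7.01 and 11.2 CPM in CPT and 37.8, 32.1 and 40.4 CPM in AT3, with 358 to 432 CPM in CON. The rise was 3.77-fold (log2 1.92 ± 0.16 SE, adjusted p = 2.48e-05), and AT3 remained far under CON. Avpr1a, a vasopressin receptor, rose 1.73-fold (adjusted p = 0.0013), Slc45a3, a sugar transporter, 1.64-fold (adjusted p = 0.00409), and Tfrc, the transferrin receptor, 1.38-fold (adjusted p = 0.0106). The calls of Elovl3, Avpr1a and Slc45a3 held when any of the 6 libraries was left out.

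**Figure D4:**
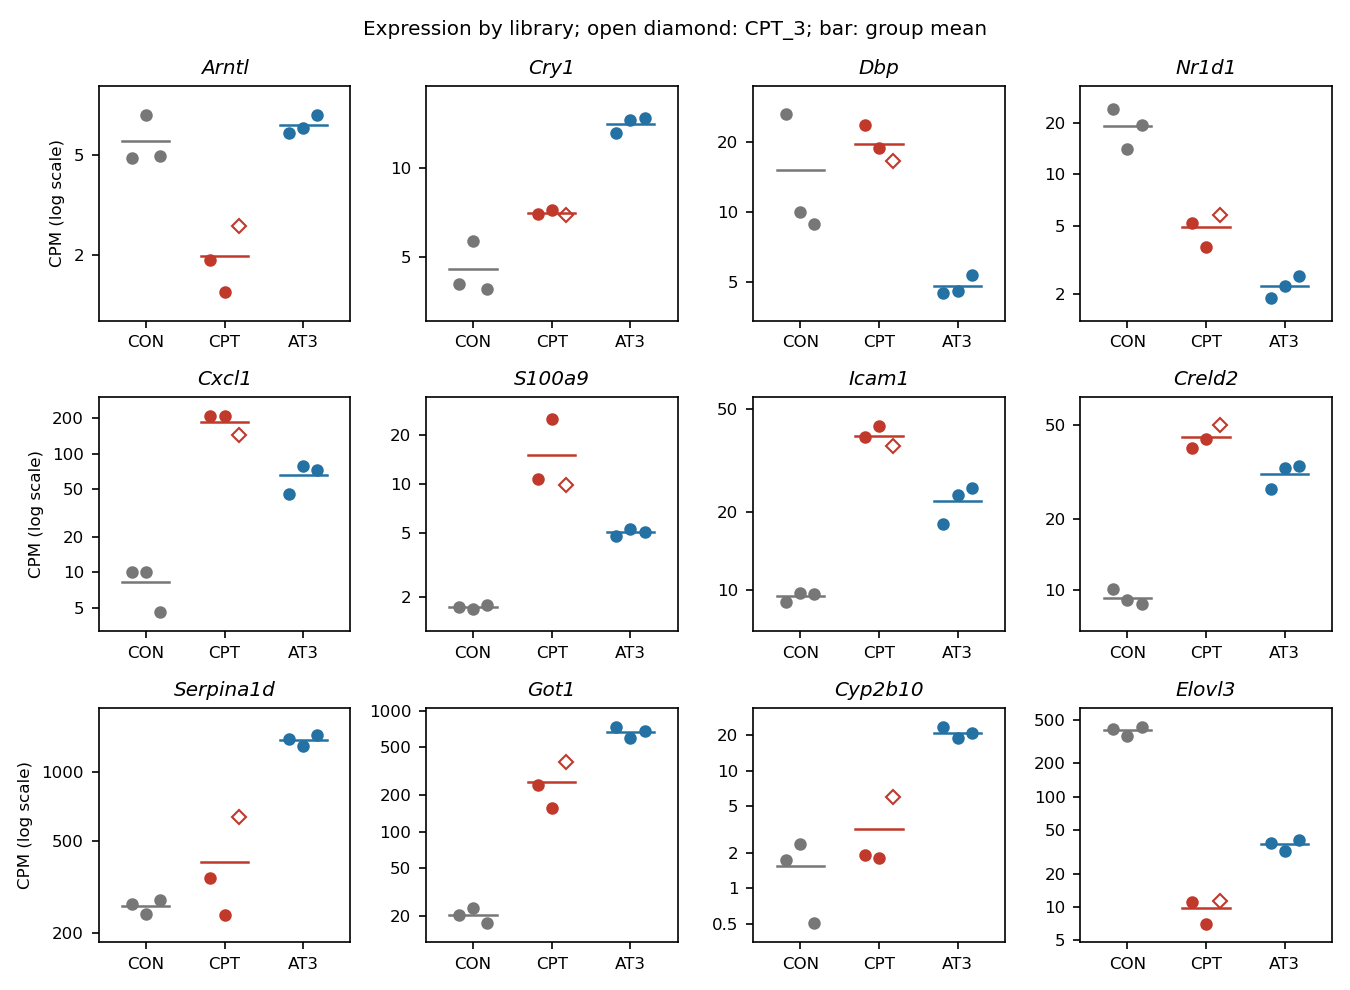
CPM on a log axis in each library for 12 genes, by group (CON grey, CPT red, AT3 blue), with bars at the group means and CPT_3 as an open diamond. CPT_3 lies with the other CPT libraries for Cry1 and Icam1, and between them and AT3 for Serpina1d, Got1 and Cyp2b10.

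Cxcl1, the chemokine that draws neutrophils, was at 206, 206 and 143 CPM in CPT and at 45.6, 78.8 and 73.1 CPM in AT3, with 4.62 to 10.1 CPM in CON. The 3 AT3 livers were all below the lowest CPT liver and all above CON. Cxcl1 fell 2.82-fold (log2 -1.49 ± 0.23 SE, adjusted p = 0.00207), and the log2 value was -1.65 without CPT_3. Of 12 tested members of the list of IL-17 and cytokine targets, 5 fell, none rose and 7 were not called, with a median of -0.75, which was -0.27 on the log2(TPM + 1) scale. The members called were Cxcl1, Cxcl9, S100a8, S100a9 and Steap4, and the same 5 were called without CPT_3. Steap4, a metalloreductase induced by cytokines, was at 293, 381 and 359 CPM in CPT and 182, 237 and 236 CPM in AT3, and fell 1.58-fold (adjusted p = 0.0116). Lcn2, a textbook target of the same pathway and a member of the list, was not among them, with a log2 difference of -0.14.

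S100a8 and S100a9 encode the 2 chains of calprotectin, a cytosolic protein of neutrophils and monocytes. S100a9 was at 10.7, 25.1 and 9.84 CPM in CPT and at 4.79, 5.30 and 5.09 CPM in AT3, and CPT_2 was the highest library. S100a9 fell 3.02-fold (adjusted p = 0.00409) and S100a8 2.99-fold (adjusted p = 0.00337). Csf3r, the receptor that matures neutrophils, fell 2.34-fold (adjusted p = 0.0348), and Slfn4, a myeloid gene, 2.77-fold (adjusted p = 0.0241), each with 5 of 6 leave-one-out fits in which the call was lost. Summed over the list of 20 neutrophil markers, the level was 29.75, 58.91 and 30.06 CPM in CPT, 18.57, 18.90 and 18.55 CPM in AT3 and 5.967 to 6.969 CPM in CON. Of the 12 markers tested, 3 fell; Ly6g never exceeded 3 counts in a library and Camp was at 0 in all CPT and AT3 libraries. S100a8, S100a9 and Csf3r are members of that sum, so it was bound to move with them. Means of S100a8 and S100a9 were 8.71 and 15.2 CPM in CPT and 2.92 and 5.06 CPM in AT3. The part of neutrophil content in the fall of Cxcl1 and the other targets was not tested. Summed monocyte and macrophage markers overlapped, at 94.88 to 122 CPM in CPT and 114.3 to 125.5 CPM in AT3, with 0 of 19 called by edgeR's test or by DESeq2 and 8 at an unadjusted p under 0.05.

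Of 27 tested members of the list from the IL-17 receptor to NF-kB, the chain named in the series title, 1 rose and 1 fell, and the median was -0.02. The share called was 7.41%, beside 4.68% of all genes, and without CPT_3 the counts were 2 and 3, beside 9.3% of all genes. Tab2, an adaptor that links TRAF6 to the kinase TAK1, rose 1.35-fold (25.9, 24.5 and 23.4 CPM in CPT, 31.2, 32.8 and 35.9 CPM in AT3, adjusted p = 0.0157). Nfkbia, the inhibitor IkB-alpha and itself an NF-kB target, fell 1.32-fold (21.2, 24.5 and 21.5 CPM against 16.9, 17.0 and 17.1 CPM, adjusted p = 0.0331). The receptor gene Il17ra was at 19.4, 24.2 and 17.1 CPM in CPT and 13.4, 13.8 and 17.1 CPM in AT3, and did not pass with all libraries (adjusted p = 0.106) but did without CPT_3 (log2 -0.56, adjusted p = 0.0347). Cebpd, a transcription factor downstream of the receptor, followed the same course, with adjusted p values of 0.0619 and 0.0276. Rel, which encodes the NF-kB subunit c-Rel, was at 1.7, 2.34 and 2.88 CPM in CPT and 3.38, 3.26 and 4.33 CPM in AT3, with adjusted p values of 0.101 with and 0.0363 without CPT_3. Nfkb1, the gene of a further NF-kB subunit, had a log2 difference of 0.46 (adjusted p = 0.0647). Il17a was at 0 counts in every library, which allows at most 3 counts, and Il17f at no more than 1. For the deposited IL-17 signalling map, 1 of 55 tested genes rose and 4 fell.

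Among 21 NF-kB feedback and target genes, 3 fell and none rose, with a median of -0.23. Icam1, an adhesion molecule for leukocytes, was at 38.7, 42.7 and 35.7 CPM in CPT, 17.9, 23.3 and 24.6 CPM in AT3 and 8.94 to 9.70 CPM in CON. AT3 lay between the other groups in every library, and Icam1 fell 1.78-fold (adjusted p = 0.00132). Bcl3, a nuclear partner of NF-kB, fell 2.03-fold from 34.6, 32.9 and 28 CPM to 12.3, 14.7 and 20.1 CPM (adjusted p = 0.00199). Tifa, an adaptor that activates TRAF6, fell from 3.68, 6.97 and 3.19 CPM to 0.820, 1.03 and 1.29 CPM, which is 4.43-fold (log2 -2.15 ± 0.30 SE, adjusted p = 0.00132). Tifa, which was not on the list, overlapped CON (1.06 to 1.35 CPM) in AT3, and the calls of Icam1, Bcl3 and Tifa held in each of the 6 leave-one-out fits. Socs3, the feedback inhibitor of the STAT3 pathway, fell 1.75-fold (67.8, 76.9 and 55.9 CPM against 34.5, 43.1 and 37.3 CPM, adjusted p = 0.0158).

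Icam1 and Steap4 each held the palindrome TTCCNGGAA, to which STAT3 binds, and both promoters are shown with it in capitals, 5′ to 3′ on the plus strand, from RefSeq on GRCm38.p6 (chr9:21015690-21015939 for Icam1 and chr5:7960222-7960471 for Steap4).
Icam1: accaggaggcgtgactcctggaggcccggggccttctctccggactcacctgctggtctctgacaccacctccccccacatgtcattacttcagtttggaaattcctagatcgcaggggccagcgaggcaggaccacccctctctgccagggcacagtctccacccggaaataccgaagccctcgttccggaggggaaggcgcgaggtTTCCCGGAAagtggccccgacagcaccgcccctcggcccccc
Steap4: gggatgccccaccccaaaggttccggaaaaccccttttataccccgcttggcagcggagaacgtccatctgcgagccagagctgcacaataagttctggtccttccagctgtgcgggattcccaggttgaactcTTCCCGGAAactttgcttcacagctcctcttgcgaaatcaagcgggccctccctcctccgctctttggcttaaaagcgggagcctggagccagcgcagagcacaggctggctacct
The matches begin 42 and 116 bases before the RefSeq start. For Icam1 that start is uncertain, since GENCODE M21 places it at base 21015985, downstream of the RefSeq one. Searched on both strands, the palindrome was in 0.914% of all 27025 promoters and in 106 of 9962 promoters of tested genes (1.06%). It was in 5 of 223 promoters of genes lower in AT3 (2.24%) and in 0 of 241 of genes higher in AT3. These counts are too small to set the 2 directions apart. One form of the NF-kB motif, searched in the same way, was in 35 of all 27025 promoters (0.13%) and in 0 of the 5 and 0 of the 3 promoters found for called members of the cytokine target and NF-kB lists, which says only that its letters are not in those windows. A match describes these letters only, and no binding was measured.

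Interferon-stimulated and MHC class I genes lay mostly lower in AT3: 34 of 38 tested members had a negative difference, the median was -0.31, and 5 fell while none rose. Without CPT_3, 11 of them were called lower, beside 3.89% of all genes in that fit. Psmb9, a subunit of the immunoproteasome, was at 18.6, 21.3 and 19.3 CPM in CPT and 12.3, 11.8 and 12.2 CPM in AT3, with 12.2 to 14.8 CPM in CON. It fell 1.63-fold (adjusted p = 0.00199) and AT3 stood close to CON. Irf7, the factor that amplifies interferon output, fell 1.5-fold (adjusted p = 0.0116), Ifit1 2.36-fold (adjusted p = 0.0177) and Isg15, a ubiquitin-like protein, 1.51-fold (adjusted p = 0.0206). Xaf1, an interferon-induced gene that promotes cell death, also fell, 1.80-fold (adjusted p = 0.00167), outside the list. Stat2, the interferon signal transducer, was at 55.7, 48.9 and 30.9 CPM in CPT and 32.5, 31.4 and 29.6 CPM in AT3, so CPT_3 fell within the AT3 range and the gene was called only without it (adjusted p = 0.00035). Cd74, the invariant chain of MHC class II, fell 1.57-fold (adjusted p = 0.00565), and 1 of 7 tested class II genes was called.

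Of 30 tested acute phase plasma protein genes, 4 rose and 3 fell, with a median of 0.02. Saa3, a serum amyloid of macrophages and inflamed tissue, was at 217, 270 and 238 CPM in CPT and 109, 131 and 130 CPM in AT3, against 2.47 to 3.88 CPM in CON. Saa3 fell 1.96-fold (log2 -0.97 ± 0.12 SE, adjusted p = 0.000665), and CPT_3 lay with the other CPT libraries. The major liver forms Saa1 and Saa2, near-identical genes whose reads may be split between them, overlapped between the groups, with log2 values of 0.09 and -0.11. Among the rising members, Itih3, a hyaluronan-binding protease inhibitor, rose 1.36-fold (adjusted p = 0.0228), and Serpina3k 1.59-fold (adjusted p = 0.0241). Serpina3k stood at 6818, 8103 and 11509 CPM in CPT and 13698 to 14315 CPM in AT3, and CPT_3 was 0.688 of the way to AT3. The liver plasma protein gene Alb, albumin, stood at 38283, 30281 and 42967 CPM in CPT and 53115, 51939 and 56686 CPM in AT3 and rose 1.45-fold (adjusted p = 0.0353).

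The Serpina1 genes, mouse copies of the gene for alpha-1-antitrypsin, which inhibits neutrophil elastase, were higher in AT3 as a family. They lie side by side on chromosome 12, and their sequences are so alike that the division of reads between copies is uncertain. Serpina1d was at 348, 239 and 638 CPM in CPT and at 1400, 1304 and 1448 CPM in AT3, against 241 to 279 CPM in CON. CPT_3 was the highest CPT library, about midway to AT3 at a position of 0.507, and no library of the groups overlapped. Serpina1d rose 3.39-fold (log2 1.76 ± 0.24 SE, adjusted p = 0.00123), and the log2 value was 2.24 without CPT_3. Serpina1a rose 2.47-fold (adjusted p = 0.00199), Serpina1c 2.39-fold (adjusted p = 0.000378), Serpina1e 2.11-fold (adjusted p = 0.0116) and Serpina1b 1.81-fold (adjusted p = 0.00724). Serpina1c, at 865 to 1286 CPM in CPT and 2328 to 2925 CPM in AT3, stayed below its CON level of 7346 to 8456 CPM.

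Drug-metabolising enzymes moved in both directions. Cyp2b10, the P450 known as the main target of the receptor CAR, was at 1.91, 1.81 and 5.92 CPM in CPT, 23.3, 19.0 and 20.8 CPM in AT3 and 0.507 to 2.39 CPM in CON. AT3 was above every other library, and CPT_3 stood above the rest of CPT. Cyp2b10 rose 6.67-fold (log2 2.74 ± 0.34 SE, adjusted p = 0.000665), and by 3.50 on the log2 scale without CPT_3. Cyp3a11, the main P450 target of the receptor PXR, was lower in AT3: 343, 503 and 359 CPM in CPT and 161, 174 and 196 CPM in AT3, with 1729 to 2376 CPM in CON. It fell 2.27-fold (adjusted p = 0.000836). Cyp2c29 rose 1.76-fold (adjusted p = 0.00409) and Cyp2c38 fell 1.79-fold (adjusted p = 0.00223), 2 members of a family whose near-identical copies make the assignment of reads uncertain. Of 37 tested genes of families 2 and 3, 4 rose and 3 fell. Por, the reductase that feeds electrons to all microsomal P450 enzymes, rose 1.42-fold (adjusted p = 0.043), and lost its call in 5 of 6 leave-one-out fits.

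Conjugating enzymes were more often higher, with 8 of 35 tested members called higher and 2 lower, and a median of 0.11. Sult1e1, the estrogen sulfotransferase, was at 3.89, 2.30 and 3.08 CPM in CPT, 11.3, 12.8 and 13.8 CPM in AT3 and 0.0563 to 0.393 CPM in CON. Sult1e1, which was listed among the glucocorticoid targets, rose 4.11-fold (log2 2.04 ± 0.20 SE, adjusted p = 7.06e-05), and the log2 value was the same without CPT_3. Ugt3a1, a sugar transferase, rose 2.06-fold (adjusted p = 0.000665), Sult1b1, a sulfotransferase of thyroid hormone, 1.73-fold (adjusted p = 0.000977) and Sult1a1 1.44-fold (adjusted p = 0.0203). Among glutathione genes, 1 of 31 rose and 5 fell: Gstt3 rose 2.08-fold (adjusted p = 0.00199), while Gstm3 fell 1.98-fold (adjusted p = 0.0106) and Gpx4, which removes lipid peroxides, 1.31-fold (adjusted p = 0.0299). Osgin1, a target of the oxidative stress factor NRF2, fell 1.77-fold (adjusted p = 0.00208), and 27 of 29 NRF2 and antioxidant genes were not called.

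Of 30 tested gluconeogenesis and glycogen genes, 10 rose and none fell, with a median of 0.37. Without CPT_3, 14 rose and 1 fell, beside 5.42% and 3.89% of all genes in that fit. Got1, the cytosolic aspartate aminotransferase, was at 242, 156 and 374 CPM in CPT, 727, 592 and 677 CPM in AT3 and 17.6 to 23.5 CPM in CON. The groups did not overlap and Got1 rose 2.59-fold (log2 1.37 ± 0.22 SE, adjusted p = 0.00308), with CPT_3 at a position of 0.533. Ppp1r3c, which targets a phosphatase to glycogen, rose 2.05-fold from 6.11, 6.16 and 4.73 CPM to 11.3, 12.1 and 11.6 CPM (adjusted p = 0.00197), and CPT_3 was the lowest library. Irs2, an adaptor of the insulin receptor, rose 1.78-fold (adjusted p = 0.00458), and Foxo1, the factor that insulin holds in check, 1.48-fold (adjusted p = 0.00481). Igfbp1, which binds insulin-like growth factors, was at 68.0, 82.3 and 198 CPM in CPT and 249 to 258 CPM in AT3. CPT_3 was 0.794 of the way to AT3, and the rise of Igfbp1, 2.20-fold with all libraries (adjusted p = 0.0252), was 1.76 on the log2 scale without CPT_3 (adjusted p = 2.9e-07) in place of 1.14.

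Glucocorticoid receptor targets overlapped in part with that list, and 9 of 28 tested members rose while none fell, with a median of 0.25. Tsc22d3, also called Gilz, an anti-inflammatory gene that glucocorticoids induce, was at 55.4, 40.7 and 47.6 CPM in CPT, 89.7, 82.6 and 90.3 CPM in AT3 and 117 to 149 CPM in CON. Tsc22d3 rose 1.83-fold (adjusted p = 0.00126), with CPT_3 in the midst of the CPT libraries. Fkbp5, a chaperone of the receptor, was at 110, 95.7 and 112 CPM in CPT and 154 to 158 CPM in AT3 and rose 1.48-fold (adjusted p = 0.00479), whereas the lowest CON library was at 7.82 CPM and the mean of CON at 8.93 CPM. Lpin1, a phosphatidate phosphatase, rose 1.71-fold (adjusted p = 0.017). Hormone levels were not measured, and 19 members were not called. Of 19 immediate early genes, Nr4a1, an orphan nuclear receptor, rose 3.03-fold (3.82, 1.74 and 6.61 CPM against 14.3, 10.6 and 11.5 CPM, adjusted p = 0.00987) and Egr1 1.61-fold (adjusted p = 0.0328); neither was called with DESeq2, with adjusted p values of 0.0679 and 0.182.

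Of 47 urea cycle and amino acid catabolism genes, 8 rose and none fell (median 0.22), and of 25 periportal zonation genes, which are active in hepatocytes near the portal vein, 6 rose and none fell (median 0.32). Without CPT_3, 17 and 12 members of these lists rose, beside 5.42% of all genes in that fit and 2.46% with all libraries. Gldc, the glycine decarboxylase of mitochondria, was at 27.4, 21.3 and 33.4 CPM in CPT and 54.5, 52.1 and 57.0 CPM in AT3, with 25.5 to 32.0 CPM in CON. CPT overlapped CON, AT3 lay above both, and Gldc rose 1.99-fold (adjusted p = 0.00123). Cps1, the entry enzyme of the urea cycle, rose 1.47-fold (adjusted p = 0.0176), Tat, tyrosine aminotransferase, 1.47-fold (adjusted p = 0.0208), Aass, which degrades lysine, 1.45-fold (adjusted p = 0.0101) and Sds, serine dehydratase, 1.58-fold (adjusted p = 0.0345). Of 25 pericentral genes, Notum, an inhibitor of Wnt proteins, was the single one called (1.37-fold higher, adjusted p = 0.0429). Of 24 ATF4 target genes, 3 rose and none fell. They were Cth, which makes cysteine (1.41-fold, adjusted p = 0.0169), the fasting hormone gene Fgf21 (1.74-fold, adjusted p = 0.0203) and Trib3, a pseudokinase (1.70-fold, adjusted p = 0.0276). Of the 6 leave-one-out fits, Cps1, Sds, Notum and Fgf21 were called only in that without CPT_3. Tat, Cth and Trib3 were called in 2 of the 6.

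Of 30 tested ER chaperones and genes of the unfolded protein response, 8 fell, 1 rose and 21 were not called, with a median of -0.26, and 10 fell and 4 rose without CPT_3. Manf, a secreted ER stress protein, was at 242, 235 and 246 CPM in CPT, 141, 164 and 175 CPM in AT3 and 71.2 to 88.2 CPM in CON. CPT_3 was the highest library, and Manf fell 1.51-fold (adjusted p = 0.00565). Sdf2l1, an ER chaperone partner, was at 53.6, 52.4 and 52.7 CPM in CPT and 31.5, 37.7 and 35.2 CPM in AT3 and fell 1.52-fold (adjusted p = 0.00355). Creld2, which assists disulfide formation and was named after its values were seen, was at 40.1, 43.6 and 50.2 CPM in CPT and 26.8, 32.9 and 33.7 CPM in AT3 and fell 1.43-fold (adjusted p = 0.016). For Creld2 the groups did not overlap and CPT_3 lay on the far side from AT3, so that its log2 difference was -0.43 without that library, in place of -0.52. Syvn1, the ubiquitin ligase of ER degradation, fell 1.38-fold (adjusted p = 0.0138), Sec23b, a coat subunit of transport vesicles, 1.36-fold (adjusted p = 0.0155) and Derl3, a channel component of ER degradation, 2.69-fold (adjusted p = 0.0211). Atf6, a sensor of ER stress, rose 1.29-fold (adjusted p = 0.0345). The main chaperone Hspa5, named after its values were seen, was at 368, 436 and 423 CPM in CPT and 346, 384 and 371 CPM in AT3 and was not called (adjusted p = 0.384).

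The ER stress element, the composite site bound by ATF6 and NF-Y, was in 3 of the 7 promoters found by symbol for called members of that list, those of Creld2, Derl3 and Syvn1. They are shown for that site, in capitals, from RefSeq on GRCm38.p6, 5′ to 3′ on the plus strand, at chr15:88819396-88819645, chr10:75893148-75893397 and chr19:6046326-6046575.
Creld2: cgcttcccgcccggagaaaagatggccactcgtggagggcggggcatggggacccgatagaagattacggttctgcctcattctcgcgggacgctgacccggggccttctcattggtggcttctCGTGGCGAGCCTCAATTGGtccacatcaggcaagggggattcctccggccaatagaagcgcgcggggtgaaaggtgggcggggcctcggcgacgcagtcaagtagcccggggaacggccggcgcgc
Derl3: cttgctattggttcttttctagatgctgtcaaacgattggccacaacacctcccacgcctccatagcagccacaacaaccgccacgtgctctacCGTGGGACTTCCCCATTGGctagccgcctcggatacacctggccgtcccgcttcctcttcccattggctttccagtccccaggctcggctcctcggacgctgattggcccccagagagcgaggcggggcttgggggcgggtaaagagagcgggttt
Syvn1: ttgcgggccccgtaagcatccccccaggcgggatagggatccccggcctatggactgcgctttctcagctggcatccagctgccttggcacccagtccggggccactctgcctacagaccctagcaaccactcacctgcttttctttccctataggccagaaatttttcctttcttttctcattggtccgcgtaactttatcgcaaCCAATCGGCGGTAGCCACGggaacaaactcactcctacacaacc
Creld2 and Derl3 carry the element in the reverse direction, beginning 126 and 156 bases before the start, and Syvn1 in the forward direction at 44 bases. On both strands the element was in 33 of 27025 promoters (0.122%) and in 17 of 9962 promoters of tested genes (0.171%). It was in 9 of the 24 promoters found for tested members of the list, called or not. Of promoters of genes lower in AT3, 4 of 223 held it (1.79%), and of those higher in AT3, 0 of 241. The list was drawn up from textbook targets of this response, so the frequency of the element in it is part of how it was made.

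Lpl, lipoprotein lipase, was at 2.79, 2.74 and 3.73 CPM in CPT, 12.7, 9.25 and 10.4 CPM in AT3 and 12.1 to 12.5 CPM in CON. AT3 reached close to the CON level, and Lpl rose 3.51-fold (log2 1.81 ± 0.15 SE, adjusted p = 2.48e-05). Of 27 lipid uptake and droplet genes, 5 rose and 3 fell. G0s2, an inhibitor of the lipase ATGL, rose 2.22-fold (adjusted p = 0.00565) and Plin5, a droplet coat protein, 1.52-fold (adjusted p = 0.016), whereas Fitm1, a droplet-forming ER protein, fell 1.78-fold (adjusted p = 0.00729) and the fatty acid carrier Fabp1 1.34-fold (adjusted p = 0.0272). Elovl2, which extends polyunsaturated fatty acids, fell 1.70-fold from 172, 217 and 178 CPM to 107, 114 and 113 CPM (adjusted p = 0.000836). Hacl1, a peroxisomal lyase of fatty acid alpha-oxidation, rose 1.87-fold from 33.9, 47.8 and 40.7 CPM to 77.0, 74.6 and 77.4 CPM (adjusted p = 0.000597). Pdk4, the kinase that shuts pyruvate dehydrogenase in fasting, rose 2.26-fold (adjusted p = 0.0101). Of 41 fatty acid oxidation and PPARA target genes 3 rose and 2 fell. The counts without CPT_3 were 7 and 2, beside 5.42% and 3.89% of all genes in that fit.

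Of 27 tested cholesterol synthesis genes, 26 had a positive difference, 6 rose and none fell, and the median was 0.25. Insig1, which retains the sterol sensor in the ER, was at 29.1, 30.0 and 31.3 CPM in CPT and 48.2, 41.8 and 47.7 CPM in AT3, with 54.3 to 69.6 CPM in CON, and rose 1.52-fold (adjusted p = 0.0053). Stard4, a sterol carrier, rose 1.5-fold (adjusted p = 0.0138) and Msmo1, a demethylase of the pathway, 1.45-fold (adjusted p = 0.0176). Both were called in 2 of the 6 leave-one-out fits. Cyp39a1, which hydroxylates oxysterols on the way to bile acids, rose 1.88-fold from 26.3, 22.5 and 36.4 CPM to 54.8, 53.3 and 52.0 CPM (adjusted p = 0.00308), with CPT_3 at a position of 0.513. Of 16 bile acid synthesis genes, 3 rose and none fell, and the uptake carrier Slco1a4 was lower by 1.69-fold (adjusted p = 0.00197). Apolipoprotein genes were lower where called: 7 of 24 fell and none rose, with a median of -0.13, and without CPT_3 the counts were 6 and 3. Apoc4 fell 1.56-fold (adjusted p = 0.00533), Apoa5, which aids triglyceride clearance, 1.42-fold (adjusted p = 0.0074), and the interferon-linked Apol9b 1.73-fold (adjusted p = 0.0013), the last a near copy of Apol9a, so that their reads may be split.

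All 15 mitochondrially encoded transcripts had a negative difference, with a median of -0.37, and 4 fell. The transcript mt-Nd3, for a subunit of complex I, was at 1160, 873 and 612 CPM in CPT, 379 to 420 CPM in AT3 and 3125 to 4764 CPM in CON. The groups did not overlap, CPT_3 lay nearest to AT3 at a position of 0.534, and mt-Nd3 fell 2.22-fold (adjusted p = 0.004). The ribosomal RNA mt-Rnr2 fell 2.05-fold (adjusted p = 0.00876), mt-Atp6, a subunit of ATP synthase, 1.92-fold (adjusted p = 0.00693) and mt-Rnr1 1.80-fold (adjusted p = 0.0175). The share of all counts on these genes was 16.32%, 12.99% and 11.15% in CPT and 9.795%, 9.799% and 11.43% in AT3. These shares overlapped, since CPT_3 was below AT3_3, with an exact two-sided permutation p of 0.2 (0.4 adjusted over 4 shares), where 0.1 is the smallest that 3 against 3 can give. Of 50 nuclear genes of the respiratory chain, 3 rose, among them Sdhd of complex II (1.49-fold, adjusted p = 0.0306), and 1 fell, Uqcrq of complex III (1.34-fold, adjusted p = 0.0392). Without CPT_3, 11 rose and 2 fell, beside 5.42% and 3.89% of all genes in that fit.

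Of 38 p53 targets, 1 rose and 3 fell (10.5% called, beside 4.68% of all genes), and without CPT_3 the counts were 3 and 3. Phlda3, an inhibitor of AKT induced by p53, was at 56.8, 57.5 and 62.1 CPM in CPT, 40.9, 40.6 and 45.6 CPM in AT3 and 0.732 to 0.787 CPM in CON, and fell 1.39-fold (adjusted p = 0.00754). Bax, the pore-forming death effector, was at 75.3, 71.7 and 63.8 CPM in CPT and 53.8, 46.0 and 52.2 CPM in AT3 and fell 1.39-fold (adjusted p = 0.0155). In neither gene did the groups overlap, and both stayed above CON in every AT3 library. Trp53inp1, a p53-induced regulator of autophagy and death, rose 1.41-fold (adjusted p = 0.0159), and Bcl2l11, the death activator BIM, 1.60-fold (adjusted p = 0.036). Cdkn1a, the cell cycle inhibitor p21, was at 217, 248 and 332 CPM in CPT and 311 to 339 CPM in AT3 and was called only without CPT_3 (log2 0.50, adjusted p = 0.0211). Cdkn1a in CPT_3 lay within the AT3 range.

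Of 25 iron and heme genes, 3 rose and 1 fell. Hamp2, a copy of the hepcidin gene, was at 0.106, 0.187 and 0.0769 CPM in CPT, 1.18, 0.439 and 1.83 CPM in AT3 and 87.6 to 148 CPM in CON. It rose 8.58-fold (log2 3.10 ± 0.62 SE, adjusted p = 0.0122), but CPT_3 held fewer than 3 counts, so the size is imprecise. Hamp, which encodes hepcidin, the hormone that blocks iron export, moved the other way, from 907, 1182 and 718 CPM in CPT to 506, 567 and 713 CPM in AT3. CPT_3 and AT3_3 almost met, and Hamp fell 1.57-fold (adjusted p = 0.0323). As Hamp2 is a copy of Hamp, reads may be split between them. Slc40a1, the exporter ferroportin, rose 1.48-fold from 21.3, 20.8 and 17.9 CPM to 28.4, 29.7 and 30.5 CPM (adjusted p = 0.00409), with CPT_3 the lowest library. The zinc exporter Slc30a1 rose 1.43-fold (adjusted p = 0.00592), and the copper chaperone Atox1 fell 1.34-fold (adjusted p = 0.0159).

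Of 16 Kupffer cell markers 3 rose (18.8%, beside 2.46% of all genes), Slc40a1 among them, and none fell; Vsig4, a complement receptor of these cells, was at 0.565, 0.592 and 0.461 CPM in CPT and 1.25, 1.54 and 1.07 CPM in AT3. Summed Kupffer markers were 118.9 to 146.1 CPM in CPT and 151.6 to 157.5 CPM in AT3. The called members Slc40a1 and Hpgd are part of that sum, with means of 20.0 and 14.8 CPM in CPT and 29.6 and 25.2 CPM in AT3. Of the 16 tested markers, 11 had a positive difference and 5 a negative one, and Vsig4 lost its call in each of the 6 leave-one-out fits. Stellate cell and fibroblast markers fell in 3 of 21 cases (14.3%, beside 2.22% of all genes), with Ecm1, a matrix protein, 1.41-fold lower (adjusted p = 0.0154), and their sums were 140.7 to 156.7 CPM in CPT and 119.6 to 136.6 CPM in AT3. Endothelial markers overlapped in sum and gave 1 call of 24. The haemoglobin gene Hba-a2, a measure of blood in the sample and 1 of several near-identical copies, was at 0.747 to 1.15 CPM in CPT and 1.47 to 2.15 CPM in AT3, against 312 to 362 CPM in CON.

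Several of the strongest differences lay outside these lists. Ccdc152, a coiled-coil gene, was at 1037, 765 and 375 CPM in CPT, 210, 161 and 162 CPM in AT3 and 845 to 1049 CPM in CON. Ccdc152 fell 4.08-fold (log2 -2.03 ± 0.25 SE, adjusted p = 0.000665), with CPT_3 between the groups at a position of 0.534. It lies on the minus strand of chr15:3280070-3303526 (GRCm38, GENCODE M21) and overlaps the end of Selenop, the selenium carrier of plasma, on the plus strand at chr15:3268547-3280508. Selenop, named for this overlap after its values were seen, was at 2675, 3040 and 3760 CPM in CPT and 3550, 3774 and 3644 CPM in AT3, without a call (adjusted p = 0.498). No source used here says that strand was kept in counting, so reads of the overlap cannot be told apart.

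Lgals1, the sugar-binding protein galectin-1, had the smallest adjusted p of the genes lower in AT3. Its level was 9.22, 11.7 and 11.4 CPM in CPT and 3.54, 4.36 and 3.65 CPM in AT3, with 7.54 to 9.44 CPM in CON, so AT3 was below both other groups in all libraries. Lgals1 fell 2.79-fold (log2 -1.48 ± 0.14 SE, adjusted p = 7.06e-05), and CPT_3 was on the far side from AT3. Tmsb10, a thymosin that binds actin, fell 1.77-fold from 12.9, 14.6 and 12.8 CPM to 7.55, 7.46 and 7.84 CPM (adjusted p = 0.000753), and CON stood at 60.1 to 71.6 CPM. Atp1b1, a subunit of the sodium pump, rose 2.63-fold from 35.2, 22.9 and 40.3 CPM to 93.2, 80.6 and 84.0 CPM (adjusted p = 0.000378). Enpp2, the enzyme autotaxin, which makes lysophosphatidic acid, rose 2.38-fold from 30.5, 23.6 and 37.1 CPM to 75.9, 67.7 and 73.0 CPM (adjusted p = 0.000437). In Atp1b1 and Enpp2 every AT3 library was above every CPT and CON library, and CON was lowest. Among genes near the lower limit of 1 CPM, Adgrf1, an adhesion receptor, rose 2.80-fold (adjusted p = 0.00479) and Zbed6, a zinc finger repressor, 3.40-fold (adjusted p = 0.00883), while Palm, paralemmin, fell 2.56-fold (adjusted p = 0.00987).

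How far each call depended on a single library was read from 6 fits with 1 library of the comparison left out each time. Leaving out CPT_3 raised the number of calls to 1316, whereas leaving out CPT_1 or CPT_2 gave 354 and 229 and leaving out an AT3 library gave 172 to 228. In these fits 123 genes, 19.2% of the 641, were called every time, 75 higher and 48 lower; among them were Arntl, Cry1, Dbp, Cxcl1, S100a9, Icam1, Serpina1d, Got1, Cyp2b10, Sult1e1, Elovl3, Lpl, Manf, Tsc22d3 and Lgals1. Another 229 genes were called without CPT_3 and lost in each of the other 5 fits, as for Serpina3k, Cps1, Igfbp1 and Nr1d2. Alb, Isg15, Sult1a1, Bcl2l11, Egr1, Atf6, Sdhd and Uqcrq were also among these. None of the 641 changed sign in any of the 6 fits. For the 634 in which the groups did not overlap, this was nearly fixed in advance and is no support. The median difference of the 641 genes was 1.09 times as large without CPT_3.

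Over the 641 genes CPT_3 had a median position of 0.249, CPT_1 of -0.149 and CPT_2 of -0.169; these values rest on genes chosen with all 6 libraries and describe them only. CPT_3 lay past the midpoint for 129 of these genes, CPT_1 for 25 and CPT_2 for 14. Genes with CPT_3 past the midpoint included Igfbp1 (0.794), Sdhd (0.704), Serpina3k (0.688), Por (0.669), Slfn4 (0.668) and Hamp (0.65). Genes with CPT_3 at or near the level of the other CPT libraries included Tsc22d3 (0.0031), Sdf2l1 (0.014), Hacl1 (0.0166), Sult1e1 (0.0182) and Saa3 (0.0274), and for Cry1 (-0.0308), Lgals1 (-0.0902), Ppp1r3c (-0.405) and Slc40a1 (-0.479) it lay on the far side. 

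**Figure D5:**
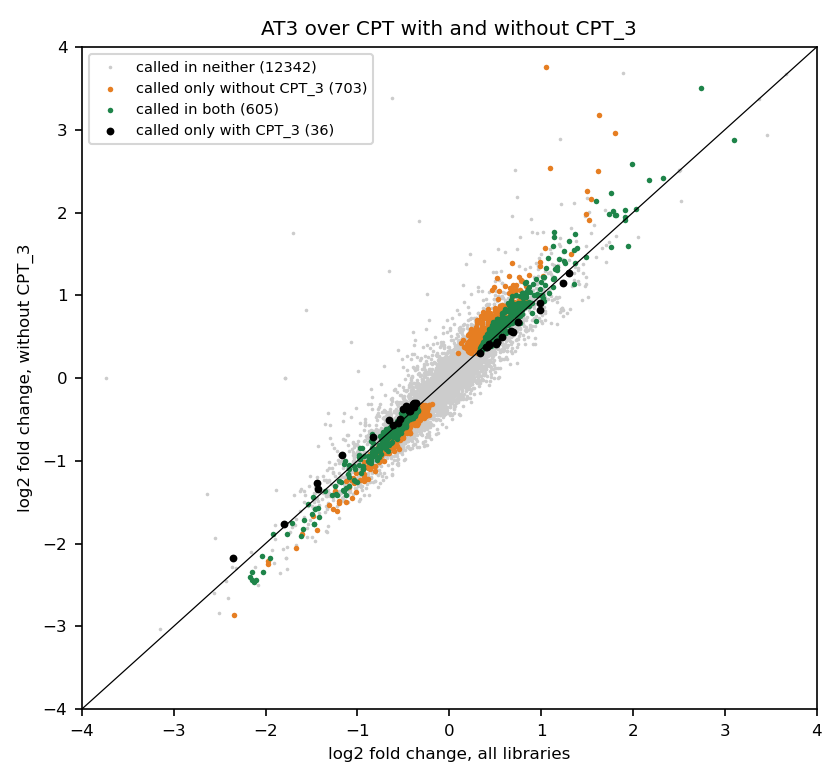
Log2 fold change of AT3 over CPT with all libraries (horizontal) and without CPT_3 (vertical) for genes tested in both fits; the line marks equal values, and 10 genes lie outside the axes. Green points are the 605 genes called in both, orange points 703 called only without CPT_3 and black points 36 called only with it; orange points lie farther from 0 on the vertical axis than on the horizontal one.

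The 36 genes that lost their call without CPT_3 kept their direction. For 0 of them was CPT_3 the only library whose omission cost the call. Ly6d, Arfgap3, Preb, Ccng2 and Clock were called in 1 of the 6 leave-one-out fits and Vsig4 in 0. In those named here CPT_3 lay on the far side from AT3. Ly6d, a surface protein of lymphoid and epithelial cells, was at 4.77, 2.68 and 5.81 CPM in CPT and 1.87 to 2.01 CPM in AT3, with an adjusted p of 0.0239 with all libraries and 0.0571 without. Arfgap3 and Preb, which act in transport between ER and Golgi, had adjusted p values of 0.0272 and 0.036 with CPT_3 and of 0.0544 and 0.0662 without. Vsig4 went from 0.0333 to 0.053, Ccng2, a cyclin that rises in resting cells, from 0.0376 to 0.0605, and Clock from 0.0399 to 0.0556.

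Of the 711 genes called only without CPT_3, 703 had been tested with all libraries, all 703 with the same direction, and 600 with an unadjusted p under 0.05. Gucy2c, a guanylate cyclase receptor, was at 5.16, 5.6 and 13.9 CPM in CPT and 11.4, 10.5 and 11.9 CPM in AT3, so CPT_3 exceeded every AT3 library; its adjusted p was 0.345 with that library and 0.00035 without. Apom, an apolipoprotein that carries sphingosine phosphate, was at 29.7, 34.0 and 59.1 CPM in CPT and 46.4 to 57.8 CPM in AT3 (adjusted p of 0.271 and 0.00128). Ube2g2, an ER degradation enzyme, was at 20.4, 22.8 and 38.8 CPM in CPT and 35.1 to 39.7 CPM in AT3 (adjusted p of 0.18 and 0.000839). On the falling side, Il15ra, a cytokine receptor, was at 13.3, 13 and 7.34 CPM in CPT and 7.81 to 8.15 CPM in AT3 (adjusted p of 0.104 and 0.000597). In these 4 genes and Stat2, CPT_3 lay within or beyond the AT3 range, and CPT_1 and CPT_2 did not overlap AT3. Dusp16, a phosphatase of stress kinases, and Myom3, a muscle structural gene, had CPT_3 at positions of 0.862 and 0.864, short of AT3.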

How the data were processed

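Per the labels' protocols, RNA of liver from male BALB/c mice was column-purified and a SMARTer mRNA kit was used for the libraries. The authors deposited estimated counts per gene, which were rounded here because 7.96% to 9.55% of values per library were not whole, and a table of TPM values, used only in alternatives. Which aligner and counter were run is not given in the sources used here. Builds named in the submitters' processing notes are GRCm38, GRCm39 and mm10, and their use is not stated. Rows with no symbol numbered 1606, of which 198 were tested under their identifiers.

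Groups were taken from library titles. Counts were tested with edgeR 4.0.16 in R 4.3.3: TMM scaling, its filter on low counts (minimum count 10, by group), a quasi-likelihood model of the 9 libraries by group, the contrast AT3 minus CPT, and Benjamini-Hochberg adjustment over 13686 genes, with calls at an adjusted p under 0.05. Standard errors follow from the F statistic. CPM use TMM-scaled totals. In simulated counts with known changes, run on 13010 genes, the fit recovered 36.2% of genes changed 1.5-fold, 66.2% of those changed 2-fold and 90.6% of those changed 4-fold, and called 8 unchanged genes. Alternatives were DESeq2 1.42.0, limma 3.58.1 on log2 TPM, on voom weights and on log2 CPM, other filters and scalings, a replicate term, and each library left out in turn.

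The members and lists were chosen with earlier results of these data known, so lists are described by counts and medians with no test of their own. Named genes were, among called genes with an ordinary symbol, groups that did not overlap and a mean of at least 1 CPM in the higher group, the 15 largest changes and the 10 smallest p-values per direction, and besides up to 4 called members per direction of each list, members of the IL-17 chain and injury genes, and 10 genes each that were lost or gained without CPT_3; genes named outside this rule are said to be so. Promoters were the 250 bases before the start in RefSeq (GRCm38.p6), matched by symbol for 9967 tested genes and searched on both strands for 16 motifs. Gene coordinates are from GENCODE M21, found for 98.1% of tested genes.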

Additional observations from a re-analysis of the deposited data

How the results depend on the processing

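With all libraries 641 genes were called, 337 higher and 304 lower. Without a filter on low counts the counts were 1174, 617 and 557. With voom and library quality weights they were 1405, 796 and 609. With limma on log2(TPM + 1) they were 45, 29 and 16, and on log2(TPM + 0.1) they were 32, 20 and 12. A minimum of 1 on the log2 scale left 103, 50 and 53. Leaving out 1 library at a time gave 172 to 1316 calls, 93 to 766 higher and 69 to 550 lower, the high end without CPT_3. DESeq2 called 784 genes, of which 608 were among the 641, and the 6 libraries alone gave 621, of which 539 were shared. limma on log2 CPM, an alternative chosen after seeing the data, called 507. The cause of these differences was not tested. Same-numbered CPT and AT3 libraries had correlations of 0.0518 to 0.0762 in their deviations, too low to pair them. With the replicate number as a block, 451 genes were called, 435 of them among the 641; each library correlated best with its own number, a hint from the data and not from the design.

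The share of counts on the 50 most abundant genes, lower by 0.527 percentage points in AT3 with all libraries, ran from -1.15 points without CPT_3 to 0.545 points without CPT_1. Saa1 and Saa2, not called with all libraries, changed sign: on the log2 scale and with 1 library left out, Saa1 ran from -0.0435 (without CPT_1) to 0.254 (without CPT_2) and Saa2 from -0.219 (without CPT_1) to 0.0799 (without CPT_2), and Saa2 was at 0.0119 with either TPM pseudocount. Of 57 list medians, 29 moved by more than the spread on the log2(TPM + 1) scale, 13 without CPT_3 and 0 with DESeq2's size factors. Over 193 named genes and all alternatives, 3660 values were computed, of which 2785 kept their direction and side of the threshold, 825 lost their call, 46 gained one and 4 changed sign.

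With 3 libraries a group, simulated 1.5-fold changes were recovered in 36.2% of genes. That simulation left out the CON difference and the place of CPT_3. A gene without a call may still differ by 1.5-fold. No label gives the hour of sampling, dose or animal, so these cannot be told apart from the groups.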

Other observations

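Several genes with large differences were not named by the rule and were chosen after their values were seen. Ugt1a2, a glucuronosyltransferase that shares exons with its neighbours, so that reads may be divided among them, was at 24.6, 12.5 and 0 CPM in CPT, at 0 in all 3 AT3 libraries and at 21.1, 22.3 and 15.9 CPM in CON. Kpna2, an importin of nuclear transport, was at 7.42, 5.6 and 0 CPM in CPT, at 0 in all 3 AT3 libraries and at 3.03, 1.88 and 0 CPM in CON. In both genes CPT_3 matched the AT3 libraries and overlapped them, so no fold is given. The adjusted p values by edgeR's quasi-likelihood test were 0.0104 for Ugt1a2 and 0.0234 for Kpna2.

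Rpl17-ps3, named as a ribosomal protein pseudogene, was at 25, 20.8 and 8.50 CPM in CPT and at 5.74, 2.95 and 3.76 CPM in AT3, with 33.2 to 49.6 CPM in CON. It fell 4.38-fold (edgeR adjusted p = 0.00199), and its reads may be shared with the parent gene. Gm10524, a predicted gene, was at 74.2, 42.2 and 21.3 CPM in CPT and at 8.56, 6.21 and 17.6 CPM in AT3, and fell 4.28-fold (edgeR adjusted p = 0.00592). CPT_3 was the lowest CPT library in both, at positions of 0.569 and 0.554.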
